A study of Mus musculus with 2 samples.

Results

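Chemokine ligands are small secreted proteins that direct the movement of leukocytes. They were read here in whole liver RNA of male C57BL/6 mice with liver fibrosis. One group had received recombinant TSG-6 protein by the intravenous route (labelled Rh_TSG-6) and the control group PBS, and liver RNA was taken 2 weeks later. Equal amounts of RNA from 3 mice of a group were combined into a pool, and each pool was hybridised to 1 one-colour Agilent array, which gives 2 arrays in all. The labels used here do not give how fibrosis was induced, the dose or the age, and no liver without fibrosis was analysed here. The genes were taken by symbol: every Ccl or Cxcl followed by digits, plus Xcl1, Cx3cl1 and Pf4. The RefSeq gene table holds 41 such genes, and 35 of them had a probe named through its accession, among 20284 genes on the array. Of the 35, 26 were measured on both arrays, 3 were above background on the PBS array alone and 3 on neither, and 3 had only spots with an outlier flag. Ccl21a, Ccl21b, Ccl21c, Ccl21d, Ccl27b and Cxcl11 had no probe named in this way.

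Chemokines fall into families by the spacing of their first cysteines (CC, CXC, XC and CX3C), and each acts on one or more G protein-coupled receptors. Inflammatory members are induced by stimuli such as Tnf, interleukin-1 and interferons and draw neutrophils, monocytes or effector lymphocytes, whereas homeostatic members such as Cxcl12 and Ccl19 are made steadily and position cells within a tissue. In the injured liver they are made by Kupffer cells, recruited macrophages, endothelium, stellate cells and hepatocytes, and monocytes that enter through the Ccl2 receptor Ccr2 are a known source of fibrogenic macrophages. TSG-6 protein is itself known to bind several chemokines. The arrays measure RNA and do not report on that binding.

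Each array level below is the processed spot signal as a percentage of that array's 75th percentile signal. A difference is log2 of the TSG-6 level minus log2 of the PBS level. The 75th percentile stood at a scanner signal of 3158 with PBS and 2476 with TSG-6. Hepatocyte markers were bright on both, with albumin (Alb) at 1979% and 2549%. A pool is 1 sample, so there was no replicate and no test, and each statement compares these 2 pools; pool and array cannot be told apart. A fixed size rule of 2-fold (a log2 difference of 1) was used for counting. Over 302 probes spotted repeatedly, the log2 difference had a pooled SD between spots of 0.16, which covers spot noise and leaves out the spread between mice. In whole tissue, fewer cells of a type and less RNA per cell cannot be told apart.

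The promoters of 3 neutrophil-attracting CXC ligands are shown because these genes lie close together on chromosome 5 and share a sequence element. Only Cxcl1 and Cxcl2 of them were measured on both arrays. They differed in opposite directions between the pools, Cxcl1 by less than 2-fold. The sequences are from RefSeq on GRCm38.p6, for the 150 bases before each transcription start, 5′ to 3′ on the gene's strand. Capitals mark GGGAATTTCC, a form of the motif bound by NF-kB, the transcription factor of inflammatory gene induction. Cxcl1 lies at chr5:90891095-90891244, Cxcl2 at chr5:90903749-90903898 and Cxcl3 at chr5:90785951-90786100, all on the plus strand.
Cxcl1: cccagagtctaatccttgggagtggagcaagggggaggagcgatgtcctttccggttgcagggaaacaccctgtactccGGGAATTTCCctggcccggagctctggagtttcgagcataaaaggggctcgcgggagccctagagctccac
Cxcl2: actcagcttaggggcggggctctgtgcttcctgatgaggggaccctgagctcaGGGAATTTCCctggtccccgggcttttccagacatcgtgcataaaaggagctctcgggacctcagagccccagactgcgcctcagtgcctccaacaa
Cxcl3: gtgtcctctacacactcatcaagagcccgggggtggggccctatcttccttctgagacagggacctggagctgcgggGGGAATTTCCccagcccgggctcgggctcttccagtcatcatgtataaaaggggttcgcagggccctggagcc

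The motif begins 71 bases before the start of Cxcl1, 97 before that of Cxcl2 and 73 before that of Cxcl3. This is the match to the NF-kB consensus that the plus strands of the 3 promoters share, so its presence in them is how it was chosen. Searched as GGGAATTTCC on both strands of the 250 bases before each start, it occurred in 28 of 32851 promoter entries (0.0852%). Promoter entries were found for 29 of the 41 chemokine ligand genes, and among these it occurred in Cxcl1, Cxcl2 and Cxcl3. Genes without an entry, among them Ccl2, Ccl4, Ccl5, Ccl7, Ccl11, Ccl24 and Cxcl5, were not searched. The broader NF-kB consensus, of which GGGAATTTCC is one form, was matched in 8.23% of all genes with an entry. It was matched in 7 of the 29 chemokine ligands (24.1%): the same 3 genes and Cxcl10, Ccl1, Ccl9 and Ccl20. A match is a description of the letters and not a measured binding site.

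Of the 26 chemokine ligands measured in both pools, 7 were lower with TSG-6 by 2-fold or more (26.9%) and 1 was higher by that much (3.85%). Of all 15151 genes measured in both pools 4.29% were lower to that extent, 2.94% higher and 7.23% past 2-fold in either direction. The lower genes were Cxcl2, Ccl4, Cxcl14, Ccl7, Ccl3, Cxcl9 and Ccl24, and the higher one was the neutrophil attractant Cxcl5. The median log2 difference of the 26 was -0.19, against 0.08 for all genes. Differences among the ligands ran from -1.94 for Cxcl2 to 1.49 for Cxcl5, and 18 of the 26 lay within 2-fold. The median of the family thus lay below that of all genes and near their lower quartile (-0.23), and a minority lay far to the lower side. Nearest to the 2-fold limit were Cxcl9 and Ccl24 (both -1.01) just inside it and Pf4 (-0.94) and Ccl2 (-0.81) just outside.

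**Figure D1:**
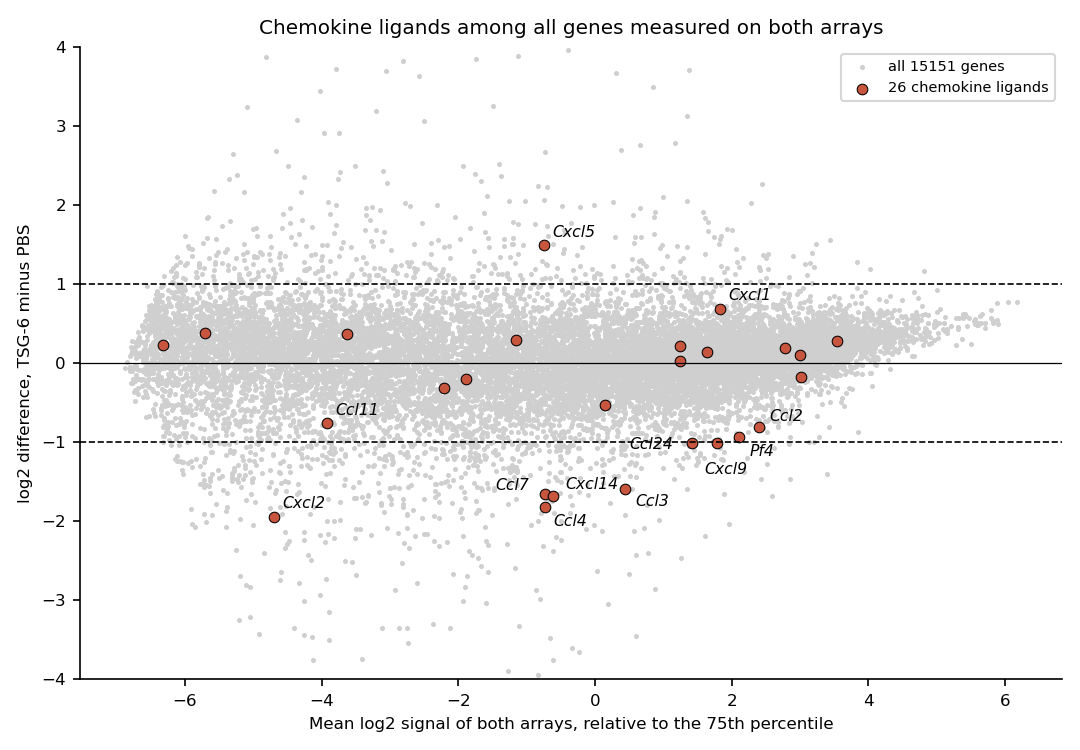
Log2 difference (TSG-6 minus PBS, vertical axis) against the mean log2 signal of both arrays relative to the 75th percentile (horizontal axis), for 15151 genes (grey) and 26 chemokine ligands (red); dashed lines mark 2-fold, and 21 genes lie beyond the vertical axis at 4. Below the lower line stand 7 ligands, from Cxcl2 among dim genes to Ccl24 and Cxcl9 among bright ones, and Cxcl5 alone stands above the upper line.

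Dim genes vary more between arrays than bright ones, so the ligands were also read within 4 bins of equal size of all genes ordered by mean signal. In the dimmest bin 1 of 5 ligands (Cxcl2) was lower by 2-fold or more, against 6.2% of all its genes. In the next bin it was 3 of 7 (Ccl4, Ccl7 and Cxcl14) against 7.87%, in the third 2 of 6 (Ccl3 and Ccl24) against 2.59%, and in the brightest 1 of 8 (Cxcl9) against 0.502%. In each of the 4 bins the share of lower ligands was above that of all genes, on counts of 1 to 3.

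The ligands of Cxcr2, the main chemokine receptor of neutrophils, differed in both directions. Cxcl5, made mainly by epithelial cells and platelets, was at 35.4% with PBS and 99.4% with TSG-6, 2.81-fold higher. Cxcl1, a ligand made by many cell types in injury including hepatocytes, was at 280.1% and 451%, a log2 difference of 0.69 that did not reach 2-fold. Cxcl2, a ligand made by activated macrophages and neutrophils, was at 7.53% and 1.96%, 3.85-fold lower. Cxcl1 and Cxcl2, adjacent protein-coding genes that both carry the element printed above, differed in opposite directions. Whether the element bears on these values was not tested. Cxcl3, the third gene with that element, was at 1.82% on the PBS array and not well above background with TSG-6 (measured at 0.176%). It was 2.42-fold lower when the PBS level is set against the lowest level of any detected probe on that array, 0.750%. Cxcl15, known as a lung epithelial chemokine, was also above background in the PBS pool alone, at 1.23%. Its measured level with TSG-6, 0.816%, was not well above background although it is above that lowest detected level. That level is therefore no limit that holds for every probe, and the fold of Cxcl3 is not a firm bound. By its measured values Cxcl15 was 1.51-fold lower, and both values lie close to the detection limit.

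Under normexp background correction the log2 difference of Cxcl2 was -1.08 in place of -1.94, still past 2-fold, and the stricter filter on dim probes left it out. Cxcl5 stayed past 2-fold in 12 of 12 alternative settings, and Cxcl1 stayed above 0 in them (0.30 to 0.98). Neutrophil markers differed beside these ligands: 5 of 9 measured were higher by 2-fold or more with TSG-6, against 2.94% of all genes. These 5 were the granule genes Mpo, Elane, Ngp, Ltf and Camp, and none of the other measured markers passed 2-fold. The summed level of the 9, in which bright probes weigh most, was 3144% with PBS and 5905% with TSG-6. The granule genes Mpo and Elane were 14.8-fold and 9.10-fold higher, while the receptor Cxcr2 differed by -0.19. Whether neutrophil numbers bear on the ligand values was not tested.

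**Figure D2:**
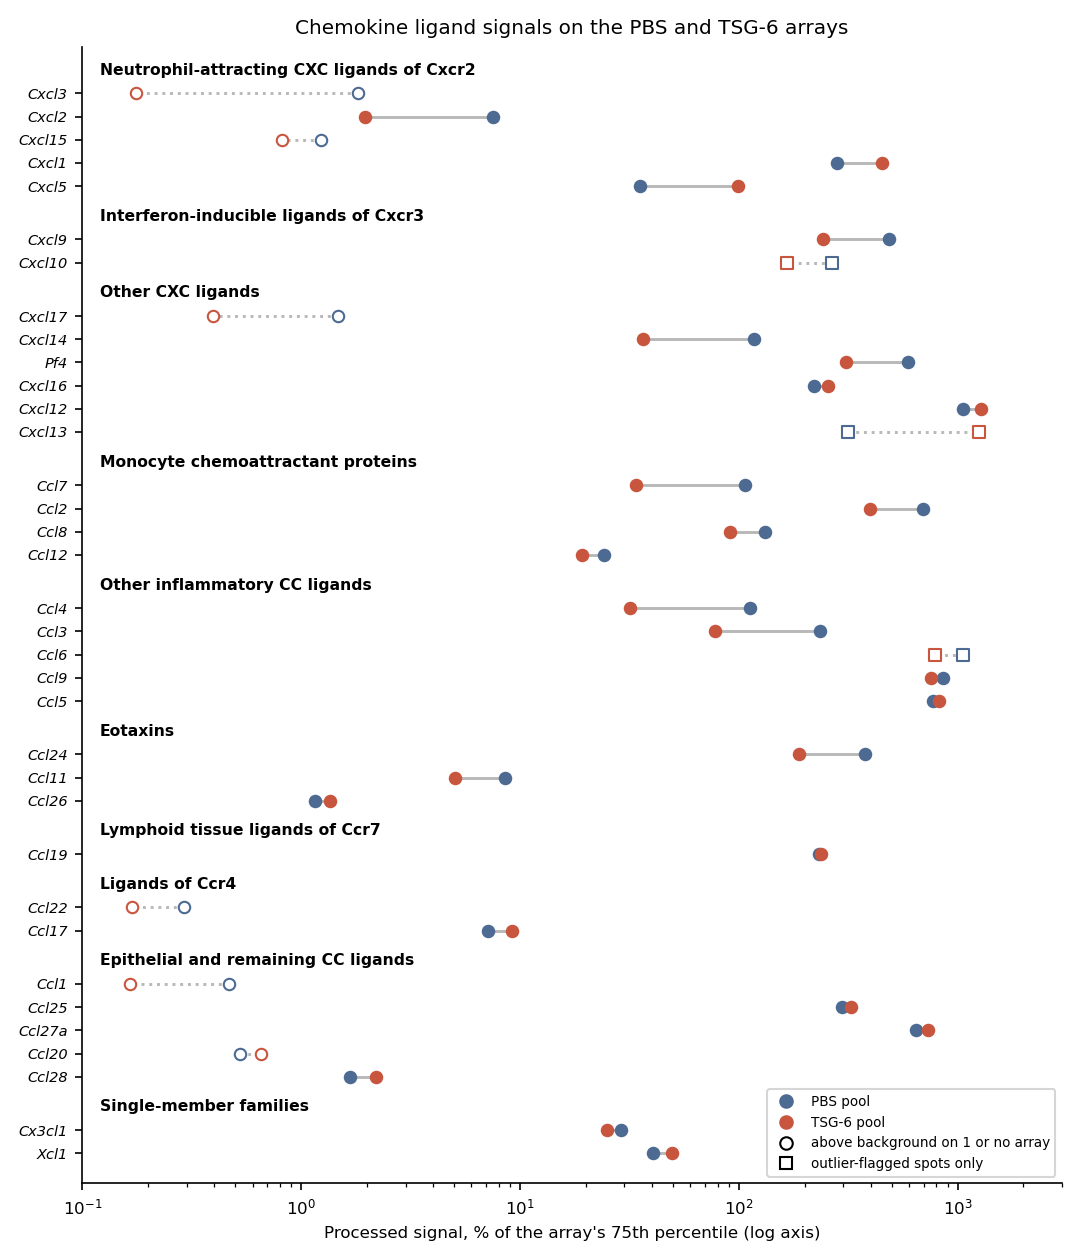
Processed signal of each chemokine ligand as a percentage of the array's 75th percentile (horizontal log axis) in the PBS pool (blue) and the TSG-6 pool (red), grouped by role; filled circles are genes measured on both arrays, open circles genes above background on 1 or no array, and open squares genes with outlier-flagged spots only. The red point lies to the left of the blue one for all 4 monocyte chemoattractant proteins and to the right for Cxcl1 and Cxcl5; signals of different probes are not comparable in height.

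Ligands of the monocyte chemoattractant family, which recruit monocytes through Ccr2 and related receptors, were all lower in the TSG-6 pool, 1 of 4 by 2-fold or more, with a median log2 difference of -0.67. Ccl7 was at 107% with PBS and 33.9% with TSG-6, 3.16-fold lower. Ccl2, the principal monocyte attractant, was at 696% and 396%, 1.76-fold lower and so under the size rule. Ccl8, which in the mouse signals mainly through Ccr8, was at 132% and 91.5%, and Ccl12, a mouse ligand of Ccr2, at 24.1% and 19.3%. The 4 genes thus had the same sign but very different sizes, from -1.66 for Ccl7 to -0.32 for Ccl12. All 4 stayed below 0 in the 12 alternative settings.

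The probe of Ccl2 is spotted 10 times on each array and so shows the technical spread of one chemokine. On the PBS array its 10 spots ran from 670.4% to 732% with a median of 696%. On the TSG-6 array 9 spots without a flag ran from 374% to 414% with a median of 398%. The 2 sets of spots did not overlap, and the SD of the log2 level was 0.03 and 0.05. These spots measure the same 2 pools and say nothing about the spread between mice.

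Ccl3 and Ccl4, inflammatory CC ligands that macrophages and lymphocytes make, were among the lowest of the family. Ccl4 (also called MIP-1 beta) was at 113% with PBS and 31.9% with TSG-6, 3.54-fold lower. Its neighbour Ccl3 (MIP-1 alpha), a ligand of Ccr1, was at 235% and 77.5%, 3.03-fold lower. The other measured ligands of this group did not share that difference. Ccl5 (RANTES), made largely by T and NK cells, was at 769% and 823%, and Ccl9, a myeloid ligand of Ccr1, at 857% and 759.6%. Of 4 measured genes in this group 2 were lower by 2-fold or more, against 4.29% of all genes. Ccl5 and Ccl9 differed by 0.10 and -0.17 on the log2 scale, both with a sign that depends on the scaling. Ccl6, a related myeloid chemokine, had a single spot that carried an outlier flag on both arrays; with the flag ignored it was at 1062% and 789%, a log2 difference of -0.43.

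Markers of recruited monocytes and macrophages were read beside these CC ligands. Of 9 measured markers 2 were at least 2-fold lower, Itgax (2.70-fold) and Gpnmb (2.50-fold), against 4.29% of all genes. The median was -0.81, and 7 lay below 0 while Itgam (0.33) and Csf1r (0.22) lay above 0. The sign of these 2 depends on the setting, and the 3 probes of Itgam ran from -1.12 to 0.33. Bright probes weigh most in the summed level, which was 6861% with PBS and 5964% with TSG-6. Of the 12 listed markers 3 were not measured on both arrays. Markers of resident Kupffer cells lay above 0 in 6 of 6, with a median of 0.28 that turned to -0.11 under spike-in scaling. T and NK cell markers, beside Ccl5, had a median of -0.02 over 9 genes with none past 2-fold, against 7.23% of all genes. The part of cell numbers in the ligand values was not tested.

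The eotaxins attract eosinophils through Ccr3. Ccl24 (eotaxin-2), which macrophages make, was at 377% with PBS and 188% with TSG-6, 2.01-fold lower. Ccl11 (eotaxin), which fibroblasts make, was at 8.59% and 5.05%, 1.70-fold lower. Ccl26 was dim in both pools, at 1.16% and 1.36%, a log2 difference of 0.23 that turned below 0 in 2 of 11 alternative settings. Ccl24 sits at the limit of the size rule: its log2 difference was -0.94 under normexp and -0.72 with the percentile taken over spots without a flag.

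Cxcl9, an interferon-inducible ligand that draws activated T cells through Cxcr3, was at 488% with PBS and 243% with TSG-6, 2.01-fold lower. Its second probe gave a smaller log2 difference of -0.67, so the mean of both probes was -0.84 and under 2-fold. It was also under 2-fold under normexp (-0.96) and with the percentile of unflagged spots (-0.72). Cxcl10, induced by the same signals, had only a flagged spot, at 266% and 166% with the flag ignored, a log2 difference of -0.68. Both thus lay on the lower side, although the Cxcl10 value rests on a spot that the scanner software marked as an outlier. Their receptor Cxcr3 differed by -0.08.

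Of the remaining CXC ligands Cxcl14 differed the most among those measured on both arrays. Cxcl14, made by epithelial and stromal cells, was at 117% with PBS and 36.5% with TSG-6, 3.20-fold lower. Pf4 (platelet factor 4, also called Cxcl4), stored in platelets, was at 595% and 310.4%, 1.92-fold lower. It passed 2-fold in 4 of the 12 alternative settings, with quantile, median, loess and spike-in scaling. Other measured platelet and megakaryocyte genes did not share its direction in the setting used, though some turned below 0 under spike-in scaling. Gp9, a platelet glycoprotein subunit, was 2.17-fold higher (under 2-fold in 3 alternative settings), and Ppbp, the platelet chemokine encoded beside Pf4, differed by 0.50. Activated stellate cell markers were below 0 in 9 of 9 beside Cxcl14, as were 6443 of all 15151 genes. By 2-fold or more 4 of the 9 were lower, against 4.29% of all genes. Not all of the 4 stayed past 2-fold in every alternative setting, nor did all 9 stay below 0. The summed level of the 9 was 5683% with PBS and 3624% with TSG-6. Whether stellate cells contribute to the Cxcl14 value was not tested.

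The homeostatic ligands Cxcl12 and Cxcl16 were close in both pools. Cxcl12, the stromal ligand of Cxcr4, was at 1054% with PBS and 1275% with TSG-6, with 2 probes at 0.04 and 0.27 on the log2 scale. Cxcl16, a membrane-bound ligand that retains Cxcr6-bearing lymphocytes in the sinusoids, was at 219.8% and 255%. Cxcl17, a mucosal chemokine, was at 1.48% on the PBS array and not well above background on the TSG-6 array (measured at 0.397%). Against the lowest level of any detected probe on the TSG-6 array it was 1.98-fold lower, which is not a firm bound. Cxcl13, which attracts B cells through Cxcr5, had a single spot, flagged on both arrays. With the flag ignored it was at 317% and 1254%, 3.96-fold higher, the largest increase of any chemokine ligand with a signal here, though it rests on that spot alone. The B cell marker Ms4a1 differed by -0.10, and Cxcr5 by -0.04.

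The lymphoid, epithelial and single-member ligands formed the quiet part of the family. Ccl19, the ligand of Ccr7 that guides dendritic cells and T cells, was at 233% with PBS and 238% with TSG-6, with log2 differences of 0.01 to 0.04 over 3 probes. Ccl17, a dendritic cell product that acts on Ccr4, was at 7.14% and 9.18%. Ccl25, known for homing to the gut, was at 297% and 326%, although its second probe, of a noncoding transcript, gave -0.42 against 0.13. Probe choice thus decides the sign of Ccl25, at a size well under 2-fold in both. Ccl27a, an epithelial ligand of Ccr10, was at 644% and 734%, its 3 probes running from -0.42 to 0.19; near-identical copies such as Ccl27b may share its signal, which makes the value uncertain. Ccl28, another ligand of Ccr10, was at 1.68% and 2.19%. Xcl1 (lymphotactin), made by NK and T cells, was at 40.6% and 49.8%, and Cx3cl1 (fractalkine), a membrane-bound ligand, at 28.9% and 25.1%. None of these 7 genes passed 2-fold in any of the settings that measured it. Of all genes 7.23% passed 2-fold in the setting used. Ccl1, Ccl20 and Ccl22 were above background on neither array, and no fold is given for them.

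**Figure D3:**
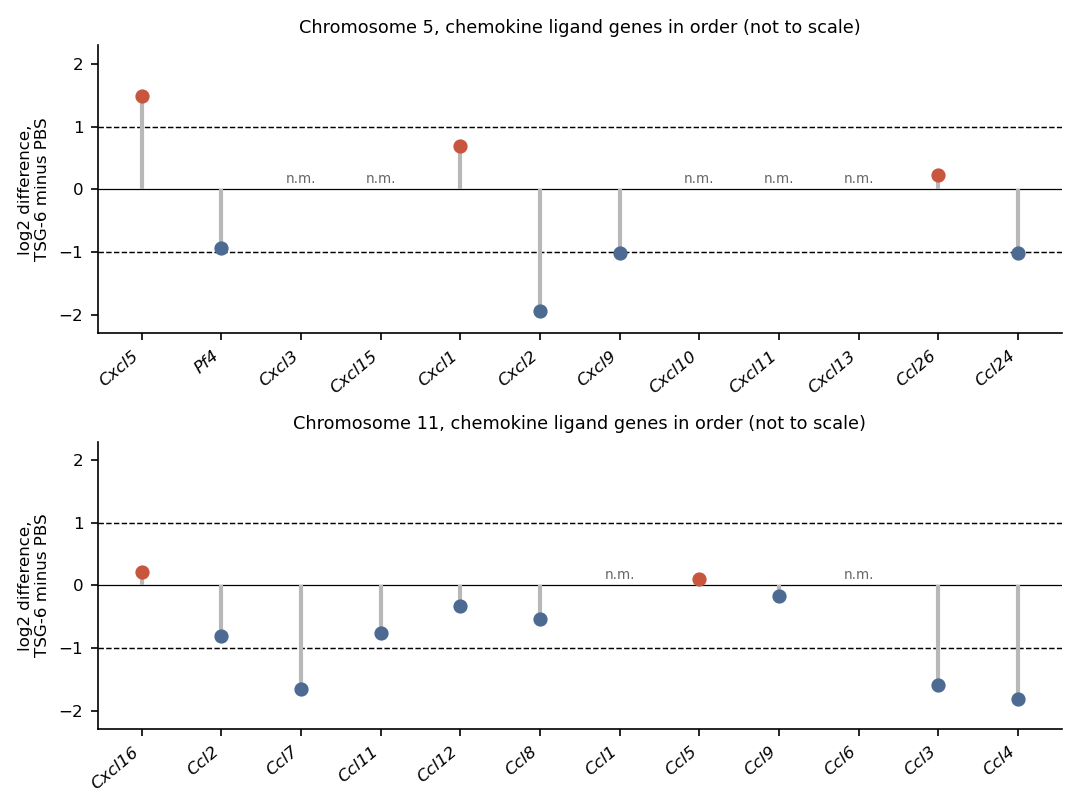
Log2 difference (TSG-6 minus PBS, vertical axis) of the chemokine ligand genes of chromosomes 5 and 11 in their chromosomal order, with even spacing; dashed lines mark 2-fold and n.m. marks genes not measured on both arrays. On chromosome 5 the adjacent genes Cxcl1 (0.69) and Cxcl2 (-1.94) lie on opposite sides of 0, and on chromosome 11 the adjacent genes Ccl3 and Ccl4 lie at -1.60 and -1.82 while Ccl5 lies at 0.10.

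The chromosomal order shows how far neighbours shared a direction. On chromosome 11 the genes from Ccl2 through Ccl7, Ccl11 and Ccl12 to Ccl8 all lay below 0, between -1.66 and -0.32. Farther along it, Ccl5 and Ccl9 lay near 0, while Ccl3 and Ccl4, which are adjacent, were both at least 3-fold lower. On chromosome 5 both directions occurred along the CXC genes. In order, Cxcl5 was higher, Pf4 lower, Cxcl1 higher, and Cxcl2 and Cxcl9 lower. Between Pf4 and Cxcl1 lie Cxcl3 and Cxcl15, which were above background on the PBS array alone.

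The chemokine receptors were read beside their ligands. Of 17 measured receptors 3 were lower by 2-fold or more, against 4.29% of all genes, and 0 were higher by that much; their median was -0.16. Ccr7, the receptor of Ccl19, was at 79.5% with PBS and 29.2% with TSG-6, 2.73-fold lower. Ccr1, which binds Ccl3, was at 43.5% and 17.4%, 2.50-fold lower, and Ccr3, the eotaxin receptor, at 36.4% and 15.7%, 2.32-fold lower. With the percentile of unflagged spots Ccr3 was at -0.92 and so under 2-fold.

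Receptor and ligand did not always differ alike. Ccr1 and Ccr3, like Ccr2 (-0.56) and Cx3cr1 (-0.83), lay below 0. So did all or all but 1 of the ligands paired with each here. Only Ccl11 and Ccl24 were paired with Ccr3, and the eotaxin Ccl26 (0.23) was left out. For Ccr7 the receptor was lower while Ccl19 differed by 0.03, and for Cxcr2 (-0.19) and Cxcr3 (-0.08) the receptor lay near 0 while ligands were past 2-fold. Ccr10 was dim, at 1.06% with PBS and 2.12% with TSG-6, just under 2-fold, and Xcr1 differed by 0.89. Ccr4 was above background on neither array.

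**Figure D4:**
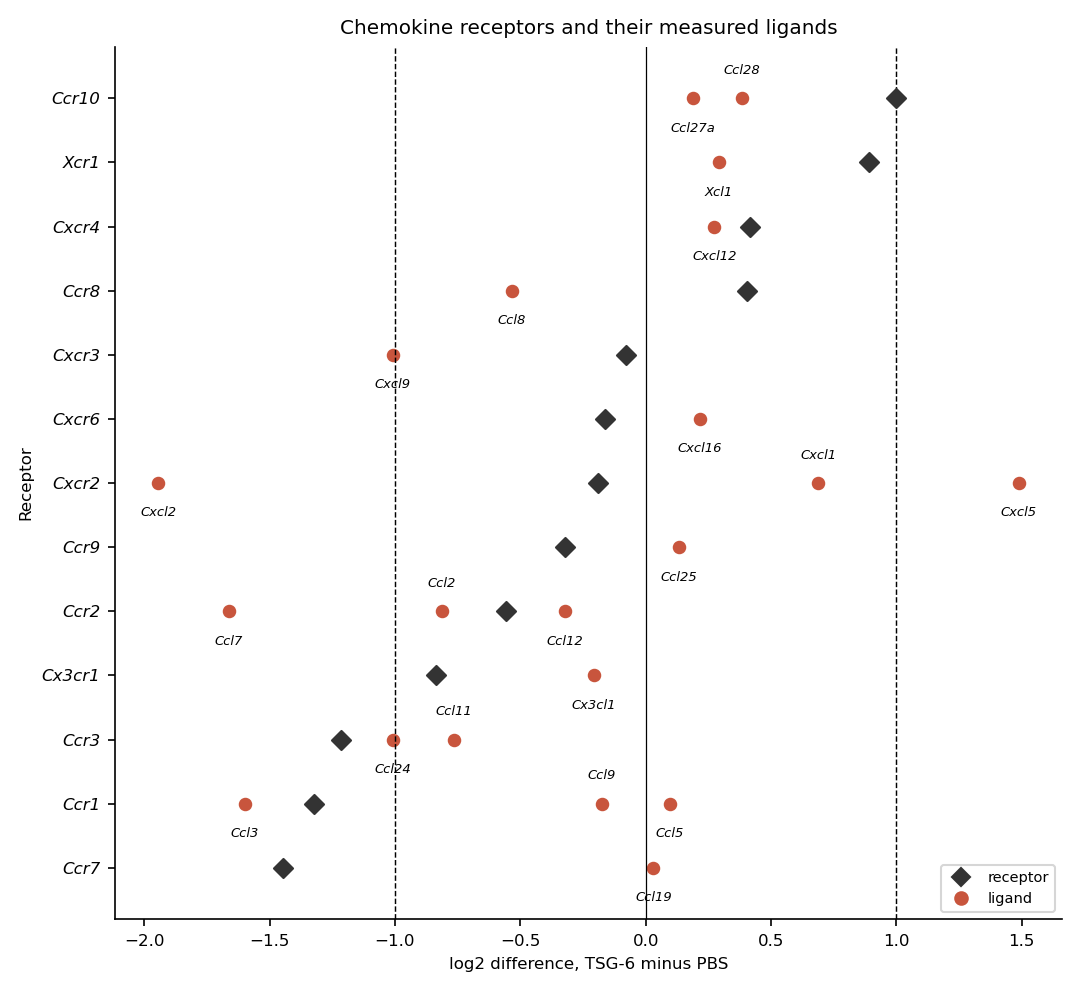
Log2 difference (TSG-6 minus PBS, horizontal axis) of 13 chemokine receptors (diamonds, vertical axis) and of the measured ligands paired with each here (circles). Dashed lines mark 2-fold, and not every known pair is included. The paired ligands of Cxcr2 run from -1.94 (Cxcl2) to 1.49 (Cxcl5), whereas all 3 of Ccr2 lie below 0.

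Most atypical receptors bind chemokines without classical signalling and remove or transport them. Of 5 measured, 1 was lower by 2-fold or more, against 4.29% of all genes, and 4 lay above 0. Ackr3, which takes up Cxcl12, was at 20.5% with PBS and 9.41% with TSG-6, 2.18-fold lower, and under 2-fold with normexp (-0.82) and with the percentile of unflagged spots (-0.84). Ackr1, a transporter on venular endothelium, was at 24.8% and 43.4%, a log2 difference of 0.81. Ackr2, a scavenger of inflammatory CC ligands, and Ackr4, a scavenger of Ccl19 and Ccl25, differed by 0.58 and 0.67, and Ccrl2 by 0.05.

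Scaling bears on every value above, since it shifts all genes together. The median of all genes was 0.08 in the setting used, 0.37 with the percentile taken over spots without a flag and -0.31 with spike-in scaling. With the former, 2.48% of all genes were past 2-fold on the lower side and 6.72% on the higher side; with the latter, 9.64% and 1.20%. Ligands with small differences, namely Cxcl12, Cxcl16, Ccl5, Ccl9, Ccl17, Ccl19, Ccl25, Ccl26, Ccl27a, Ccl28, Xcl1 and Cx3cl1, changed sign in at least 1 of the 12 alternative settings. The ligands' median minus that of all genes lay between -0.48 and -0.24 in 12 of 12 alternative settings, and between 5 and 10 ligands were past 2-fold on the lower side. Cxcl2, Ccl4, Cxcl14, Ccl7 and Ccl3 were so in every setting that measured them.

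**Figure D5:**
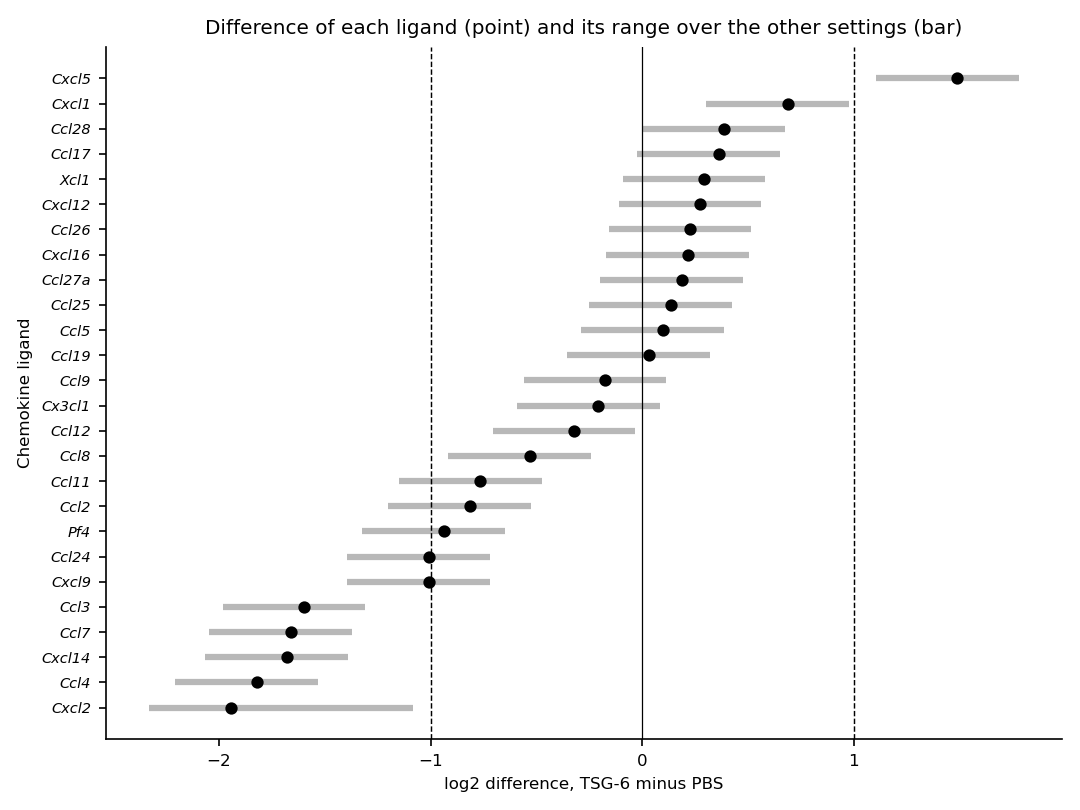
Log2 difference (TSG-6 minus PBS, horizontal axis) of each of the 26 ligands measured on both arrays (vertical axis) in the setting used (point) and its range over the 12 alternative settings (grey bar); dashed lines mark 2-fold. The bars of Cxcl2, Ccl4, Cxcl14, Ccl7 and Ccl3 stay below -1 and that of Cxcl5 above 1, while those of Ccl24, Cxcl9, Pf4, Ccl2 and Ccl11 cross the lower line.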

How the data were processed

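Each array held Cy3-labelled cRNA made from 0.2 ug of pooled RNA, per the labels' protocols. The deposited scanner files give a linear spot intensity, background-subtracted and detrended within the array, from Feature Extraction 11.5.1.1 per the file headers (10.7 per the submitters' processing notes). A deposited table of both arrays holds log2 values, equal to the log2 processed signal minus a constant within 0.001 for 99.2% of probes with PBS and 99.1% with TSG-6, with column medians of -3.90 and -3.77; it was used as an alternative.

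From these, log2 signals were centred on the 75th percentile of the 59305 non-control spots of each array. Spots flagged as outliers were dropped (3.40% with PBS, 6.44% with TSG-6), and spots of a probe averaged. Detection of a probe required the scanner's well-above-background call in 50% or more of its spots; 73.1% and 73.9% of unflagged spots had it. No chemokine spot was saturated. Probes were named through RefSeq accessions (assembly GRCm38.p6; 26762 of 55681 probes), while the array was designed on mm9 per the file headers. For genes with several probes, the one detected on more arrays was taken, and among equals the brighter one. The precision is limited by the number of arrays.

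All 41 ligand genes could be named, and of the other lists receptors and genes past 2-fold. Receptor and ligand pairs are a selection from textbook knowledge, and Ccl21d was added to the Ccr7 ligands. Values of a few single genes of these lists are not reported here; the counts over the lists include them. The members and lists were chosen with earlier results of these data known. The steps were tested on simulated data. The 12 alternatives used Python 3.11.15 and limma 3.58.1 in R 4.3.3; normexp (offset 50) used the median spot signal, where the plan named the mean.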

Additional observations from a re-analysis of the deposited data

How the results depend on the processing

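Under the 12 alternative settings the count of ligands at least 2-fold lower ran from 5 to 10, against 7. The count at least 2-fold higher was 1, except that it was 2 with flagged spots kept, which adds Cxcl13. The median of the measured ligands was -0.19; it was -0.43 without the filter on dim probes, -0.58 with spike-in scaling and 0.10 with the percentile taken over spots without a flag, a change of sign that goes with a shift of 0.29 in the median of all genes. Of 309 recomputed ligand differences, 5 of genes past 2-fold came under it, 6 of other genes passed it and none past 2-fold changed sign. Spike-in scaling rests on 8 control probes. No paired analysis was possible because each group is 1 array and the labels carry no replicate numbers; for the same reason no replicate could be left out. Values of Cxcl3, Cxcl15 and Cxcl17 are limited by signal over background in the TSG-6 pool.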

Other observations

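The list of inducers of chemokine transcription also holds Nfkbia and Tnfaip3, which encode inhibitors of NF-kB signalling. Of its 16 measured genes 0 passed 2-fold, against 7.23% of all genes, a share too small to set the list apart, and their median log2 difference was -0.04. Tnf, the cytokine that drives much of inflammatory chemokine induction, was at 8.57% of the 75th percentile with PBS and 4.40% with TSG-6, 1.95-fold lower, and past 2-fold in 4 alternative settings. Il1b, encoding interleukin-1 beta, was at 275% and 349%, and Il6 at 3.33% and 3.42%. The NF-kB subunit genes Rela and Nfkb1 differed by 0.08 and -0.12, and Nfkbia, which NF-kB itself induces, by 0.48. Ifng, the main inducer of Cxcl9 and Cxcl10, differed by 0.14, and Irf1, which acts downstream of it, by 0.04. Il17a, an inducer of Cxcl1 and Cxcl5, was above background on neither array. The array reads RNA, so the activity of these factors was not measured.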
